A study of Mus musculus with 63 samples.

Results

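The 10 genes described here are Fos, Fosb, Jun, Junb, Egr1, Egr2, Egr4, Arc, Npas4 and Nr4a1, which are 10 of the 20183 protein-coding genes measured in single neurons of the mouse primary visual cortex (V1). They were chosen by symbol, as genes known to be switched on by neuronal activity, and all 10 were found in the table. The cells were the somata of layer 2/3 neurons of wild-type C57BL/6 mice aged 70 days, loaded with the calcium dye Cal-520 AM under light anaesthesia and sucked into a pipette after their calcium response to a drifting light grating had been recorded. LS (light-sensitive) neurons responded to most repeats of the grating and NS (non-light-sensitive) neurons to hardly any, and each cell gave 1 Smart-seq2 library, a full-length cDNA method that does not keep the strand of the RNA. Both groups saw the same screen, and no cells of mice kept in the dark were part of the comparison, so every level below was measured after light.

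Of the 46 LS and 17 NS cells, 35 LS and 12 NS cells passed filters rebuilt from the description of the study. The rebuilt filters left fewer LS cells than the study kept and as many NS cells, so the LS cells used here are not exactly those of the study. The mice that the cells came from are not named, so cells were not counted as replicates and each group stands as 1 sample: values are given per cell or as mean ± SD over cells, intervals cover counting error only, and no test was made between the groups. Cells were further split by their own marker genes. A cell was called glutamate-marked where the FPKM of Slc17a7 and Neurod2 together exceeded that of Gad1 and Gad2, GABA-marked where it was lower, and unmarked where all 4 genes had no read. By this rule 30 LS cells were glutamate-marked, 4 were GABA-marked and 1 was unmarked, whereas 2 NS cells were glutamate-marked, 6 were GABA-marked and 4 were unmarked. The groups therefore differed in class as well as in light response, and with 2 glutamate-marked NS cells these cannot be told apart.

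Immediate-early genes are the first genes that a neuron transcribes after strong synaptic input, since calcium entry activates kinases that act on transcription factors already sitting at their promoters. Fos and Fosb pair with Jun and Junb to form the AP-1 transcription factors, the Egr genes encode zinc-finger transcription factors, Nr4a1 encodes an orphan nuclear receptor, and Npas4 encodes a basic helix-loop-helix factor that responds selectively to calcium influx. Arc differs from the others, as its product works at synapses, where it takes part in the removal of AMPA receptors. Their transcripts are short-lived and are widely used in the visual cortex to mark cells that were recently active.

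The promoters of 8 of the 10 genes, from 250 bases before to 50 bases after the start of transcription, were available from RefSeq (GRCm38.p6). The short CRE motif TGACG, a core of the sequence bound by CREB, was searched on both strands, where it reads CGTCA on the other one. It was present in 7 of the 8 genes (Fos, Fosb, Junb, Egr2, Egr4, Nr4a1 and Npas4, but not in Jun), against 28.3% of the 14879 genes of the table with such an entry and 20.8% of all 32851 windows. The full palindrome TGACGTCA, which holds the short motif, was in none of the 8, against 1.79% of all windows. The TATA motif TATAAA was in Fos and Junb, against 13.6% of all windows, and the CArG box bound by SRF was in Egr2 only, against 1.63%. A match says that these letters stand in the window, not that a factor was bound there. The windows of Fos (chr12:85473640-85473939, plus strand), Junb (chr8:84978699-84978998, minus strand), Egr4 (chr6:85513540-85513839, minus strand) and Npas4 (chr19:4989922-4990221, minus strand) are shown because the first pair of genes varied together over the cells described below and the second pair did not vary with them, while all 4 carry the motif, set in capitals.
Fos: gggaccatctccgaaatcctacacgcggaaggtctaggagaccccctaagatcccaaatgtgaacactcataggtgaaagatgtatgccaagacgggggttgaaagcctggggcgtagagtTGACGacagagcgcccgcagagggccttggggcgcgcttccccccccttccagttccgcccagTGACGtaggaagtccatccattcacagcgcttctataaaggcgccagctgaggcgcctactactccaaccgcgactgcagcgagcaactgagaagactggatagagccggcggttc
Junb: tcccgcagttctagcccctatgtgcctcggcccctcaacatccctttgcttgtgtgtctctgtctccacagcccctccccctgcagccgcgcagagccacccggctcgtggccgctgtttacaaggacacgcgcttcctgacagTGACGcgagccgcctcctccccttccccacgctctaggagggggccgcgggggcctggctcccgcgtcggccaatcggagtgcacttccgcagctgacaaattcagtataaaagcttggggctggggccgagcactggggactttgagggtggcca
Egr4: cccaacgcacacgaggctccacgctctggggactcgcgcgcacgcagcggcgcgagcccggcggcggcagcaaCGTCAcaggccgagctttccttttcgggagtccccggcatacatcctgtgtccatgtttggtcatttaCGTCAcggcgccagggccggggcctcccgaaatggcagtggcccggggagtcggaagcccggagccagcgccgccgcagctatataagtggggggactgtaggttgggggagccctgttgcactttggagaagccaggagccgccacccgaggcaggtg
Npas4: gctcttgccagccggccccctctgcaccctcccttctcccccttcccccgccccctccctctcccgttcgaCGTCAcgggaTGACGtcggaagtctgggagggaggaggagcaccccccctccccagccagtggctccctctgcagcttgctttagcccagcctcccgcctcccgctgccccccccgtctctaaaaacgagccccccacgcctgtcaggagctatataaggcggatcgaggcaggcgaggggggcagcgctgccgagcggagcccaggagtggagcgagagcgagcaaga

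Depth and background differed between the groups. The LS libraries held 366363 to 2509203 reads on the listed genes (median 871506) and the NS libraries 148253 to 882984 (median 316260), and the number of genes above 1 FPKM was 1642 to 9982 in LS and 1884 to 7212 in NS cells. Reads on sensory receptor genes, which cortical neurons are not known to use, reached at least 10% of the level of an even spread of reads over exons in 4 of 35 LS and 9 of 12 NS cells. In NS_12, 90.7% of the low read numbers were even, against a median of 43.2% in the other cells, as if its reads had been counted in pairs. Neuron markers (Snap25, Syt1, Map2, Rbfox3, Stmn2, Nefl) had reads in all 35 LS cells, with a summed level of 2.89 to 1164 FPKM, and in 11 of 12 NS cells, with 0 to 1182 FPKM. Microglial genes (Cx3cr1, P2ry12, C1qa, C1qb, Csf1r, Tmem119) had reads in 32 LS and 11 NS cells, with summed levels of 0 to 2931 and 0 to 9637 FPKM. Astrocyte genes had reads in 33 LS and 10 NS cells, oligodendrocyte genes in 28 and 7, blood genes in 18 and 5, and endothelial genes in 13 and 5. The summed blood genes reached 50128 FPKM in LS_45 and at most 53.8 FPKM in NS cells. The part of these differences in the results below was tested only as far as values are given beside them.

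LS cells had reads of more of the 10 genes than NS cells. An LS cell had reads of 3 to 10 of them, with a median of 7 and a mean of 6.83 ± 1.87 (SD, n = 35 cells), and an NS cell of 1 to 7, with a median of 4 and a mean of 4.08 ± 1.93 (SD, n = 12 cells), a difference of 2.75 genes. At least 5 genes were read in 31 of 35 LS and 5 of 12 NS cells, and at most 2 genes in no LS cell and 3 NS cells. Of the filtered cells, the 3 with all 10 genes were the glutamate-marked LS cells LS_18, LS_28 and LS_30, and the 2 with a single gene were NS_6 with Egr2 and NS_15 with Arc. This did not hold without the filters. LS_20, taken out by the astrocyte score, and NS_17, taken out by the joint score, had reads of all 10 genes. Both were glutamate-marked. NS_3 and NS_5, taken out by the astrocyte score, had reads of 1 gene each. No cell of either group lacked all 10.

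The difference was smaller among the deeper libraries, and thinning their reads to an equal number left it almost the same. Without molecular identifiers, thinning evens out reads but not the molecules captured, so the part of depth in the difference was not tested. Among the 35 LS and 8 NS cells with at least 200000 reads it was 1.83 genes before thinning and 1.85 after it. With each library thinned to 200000 reads, the expected number of genes with a read was 6.59 ± 1.96 (SD) in the 35 LS cells and 4.74 ± 1.48 (SD) in the 8 NS cells, which had 5 genes on average before thinning. The 4 shallower NS cells, which were left out, had reads of 2 (NS_2), 1 (NS_6), 5 (NS_7) and 1 (NS_15) of the genes. Within the glutamate-marked cells the difference was 0.433 genes, as the 2 such NS cells had reads of 7 (NS_8) and 6 (NS_9) genes against 6.93 ± 1.87 (SD) in 30 LS cells, and within the GABA-marked cells it was 2.42 genes (6.25 ± 2.22 in 4 LS and 3.83 ± 1.47 in 6 NS cells, SD). Both glutamate-marked NS cells lay at or above 50% on the sensory receptor measure (120% and 51.6%). Their class was not clear-cut. NS_8 was called by Neurod2 alone, with no read of Slc17a7, and had 6.36 FPKM of Gad1 and 13.4 FPKM of Gad2. NS_9 was called from 3.27 FPKM of Slc17a7 and Neurod2 against 0.34 FPKM of Gad2. Some glutamate-marked LS cells had Gad1 or Gad2 reads too, such as LS_6 (15.8 FPKM) and LS_30 (10.3 FPKM). The value of 0.433 is therefore not a secure comparison within 1 class, and neither is the 2.42 of the GABA-marked cells. Of those 6 NS cells, 4 lay at or above 10% on the sensory receptor measure and 2 held under 200000 reads. NS_7 was called from Gad1 alone and NS_11 from Gad2 alone, while NS_16 also had 28.8 FPKM of Slc17a7. On the LS side, LS_39 was called from 9.25 FPKM of Gad1 alone. Among cells below 10% on that measure (31 LS and 3 NS cells) the difference was 1.94, and among cells with at least 50 FPKM of neuron markers (30 LS and 5 NS cells) it was 1.63.

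**Figure D1:**
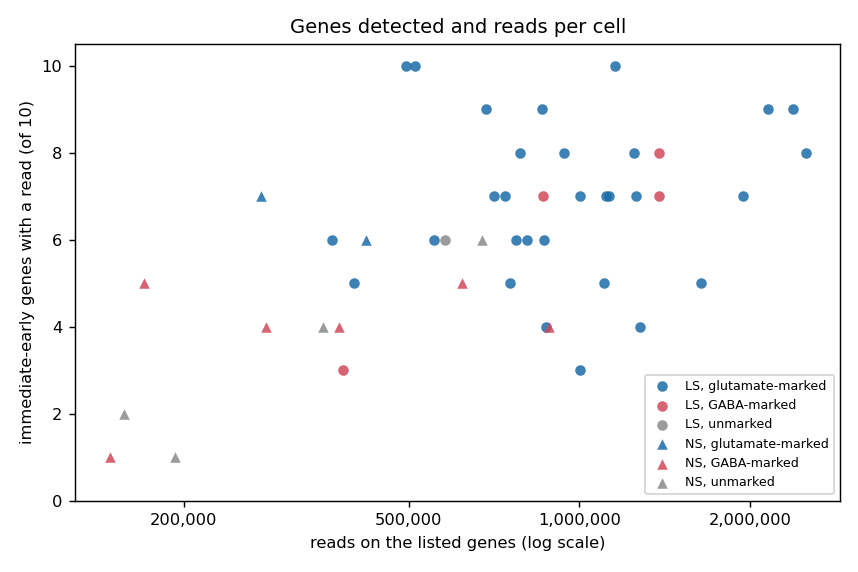
Number of the 10 immediate-early genes with a read in each filtered cell (vertical axis) against its reads on the listed genes (horizontal axis, log scale); circles are LS and triangles NS cells, coloured by marker class. The NS cells lie at 148253 to 882984 reads and 1 to 7 genes, and the LS cells at 366363 to 2509203 reads and 3 to 10 genes.

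Higher detection in LS cells was common among all genes. Of the 14058 genes with a read in over 10% of the cells, 52.2% had a share of cells with a read at least 20 percentage points higher in LS, with a median difference of 20.5 points over these genes, and 7 of the 10 immediate-early genes passed that mark, with a median difference of 24.6 points. The widest gaps were those of Egr4, Nr4a1 and Jun, at 48.8, 46.9 and 38.3 points, and the narrowest those of Npas4, Egr2 and Fos, at 6.19, 17.9 and 19.05 points. A share of 7 of 10 thus stood against a background of 52.2%.

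The AP-1 genes were read in most LS cells, and their levels spanned several orders of magnitude. Fos (GRCm38, chr12:85473890-85477273, plus strand, 4 exons), which forms AP-1 with the Jun proteins, had reads in 30 of 35 LS cells, which is 85.7% with an exact 95% interval of 69.7% to 95.2%. Of the 12 NS cells 8 had reads, 66.7% with an interval of 34.9% to 90.1%. Its level was 0 FPKM in the lowest, 152 FPKM in the median and 12613 FPKM in the highest LS cell, and 0, 39.8 and 503 FPKM in the lowest, median and highest NS cell. The groups overlapped, with 10 of 35 LS cells above the highest NS cell. The means were 916 ± 2318 and 149 ± 190 FPKM (SD, LS and NS), a log2 ratio of 2.62. A single cell, LS_39, held 39.3% of the LS sum, and without it the LS mean was 572 FPKM and the log2 ratio 1.94. Among the cells with at least 50 FPKM of neuron markers the log2 ratio was 0.89.

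Fosb, a close relative of Fos that also pairs with Jun proteins (GRCm38, chr7:19302696-19310051, minus strand), had reads in 29 of 35 LS and 7 of 12 NS cells. It ranged from 0 through a median of 38.7 to 731 FPKM in LS and from 0 through 5.92 to 467 FPKM in NS cells. One LS cell, LS_39, lay above the highest NS cell, NS_2, which held 68.1% of the NS sum of Fosb and had otherwise only Npas4. The log2 ratio of the means was 0.72, and it was 2.24 without NS_2 and 0.40 without LS_39. It turned to -0.57 among the 33 LS and 6 NS cells with at least 3000 genes above 1 FPKM, so the direction for Fosb rests on the choice of cells.

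Jun, whose protein is a partner of Fos and can also pair with itself, lies on chromosome 4 (GRCm38, chr4:95049034-95052222, minus strand, 1 exon) and overlaps the antisense gene Junos, so that reads of the 2 cannot be told apart without strand. It had reads in 28 of 35 LS and 5 of 12 NS cells. The level was 0, 28.6 and 495 FPKM in the lowest, median and highest LS cell and 0, 0 and 359 FPKM in NS cells. The means were 76.1 ± 122 and 51.5 ± 118 FPKM (SD), a log2 ratio of 0.56, which came to 1.69 without NS_14, the cell with 58.1% of the NS sum, and to 0.31 without LS_39. The ratio turned to -0.57 among the cells below 10% on the sensory receptor measure and to -0.36 among those with at least 50 FPKM of neuron markers, and it was 4.11 among those with at least 3000 genes, so the direction for Jun rests on the choice of cells too. Jun has no intron, so its reads cannot be told from reads of genomic DNA either.

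Junb, an AP-1 member that is weaker than Jun in activation (GRCm38, chr8:84974484-84978718, minus strand), had reads in 32 of 35 LS and 8 of 12 NS cells. Its locus overlaps Prdx2 on the opposite strand. The level ran from 0 through 91.0 to 1795 FPKM in LS and from 0 through 10.8 to 340 FPKM in NS cells, and 7 LS cells lay above the highest NS cell. The means were 258 ± 384 and 84.4 ± 132 FPKM (SD), with a log2 ratio of 1.61, which was 0.64 among the cells below 10% on the sensory receptor measure and 0.73 among those with at least 50 FPKM of neuron markers. For each of the 4 AP-1 genes the highest level was found in the same cell, LS_39, and for Fos, Jun and Junb the next highest was found in LS_15, another GABA-marked cell.

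The Egr genes differed among themselves far more than the AP-1 genes did. Egr1 (GRCm38, chr18:34859823-34864984, plus strand), the activity marker also known as Zif268, was the only one of the 10 genes read in every LS cell, 35 of 35 (exact 95% interval 90% to 100%), and it was read in 9 of 12 NS cells. Its level was 0.148, 421 and 5365 FPKM in the lowest, median and highest LS cell and 0, 73.6 and 1880 FPKM in NS cells, with 3 LS cells above the highest NS cell. The means were 758 ± 1047 and 327 ± 545 FPKM (SD), a log2 ratio of 1.21. This ratio depended on the cells: it was 2.02 without NS_16, which held 47.9% of the NS sum, -0.05 among the cells below 10% on the sensory receptor measure and -0.37 among those with at least 50 FPKM of neuron markers.

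Egr2, known from hindbrain and Schwann cell development and also induced by activity (GRCm38, chr10:67535475-67542188, plus strand), had the lowest mean level of the 10 genes. Reads were present in 15 of 35 LS and 3 of 12 NS cells. The median was 0 in both groups and the highest level 74.8 FPKM in LS (LS_39) and 26.1 FPKM in NS cells (NS_4). The cells LS_39, LS_17 and LS_44 held 76.8% of the LS sum, and the log2 ratio of the means was 1.33, or 0.93 without LS_39 and 2.81 without NS_4.

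Egr4, a less studied member of the family (GRCm38, chr6:85511121-85513589, minus strand), was read in 20 of 35 LS cells (57.1%, 39.4% to 73.7%) and in 1 of 12 NS cells (8.33%, 0.211% to 38.5%). It was 0, 12.2 and 822 FPKM in the lowest, median and highest LS cell (LS_22), and 0 in 11 NS cells and 287 FPKM in NS_7. The NS value rested on 126 reads. The means were 82.4 ± 163 and 23.9 ± 82.9 FPKM (SD, LS and NS), a log2 ratio of 1.79. Between the GABA-marked cells of the groups the ratio was -5.82, on 1 LS and 1 NS cell with reads. Of the 8 filtered NS cells with at least 200000 reads none had a read of Egr4, against an expected share of 55.3% of the LS cells thinned to that depth. Without the filters, 2 of 11 such NS cells had Egr4 reads, NS_1 at 172 FPKM and NS_17 at 38.4 FPKM. The share of all genes with a like gap in these cells was not measured.

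Nr4a1 (GRCm38, chr15:101254269-101274795, plus strand) was read at high level in most LS cells and at hardly any level in most NS cells. It had reads in 31 of 35 LS cells (88.6%, 73.3% to 96.8%) and in 5 of 12 NS cells (41.7%, 15.2% to 72.3%), and those 5 included 2 GABA-marked NS cells with 0.772 FPKM (NS_12) and 0.912 FPKM (NS_13). The level was 0, 363 and 4683 FPKM in the lowest, median and highest LS cell (LS_41). In NS cells it was 0 in the lowest and the median cell and 1186 FPKM in NS_14, which held 96.5% of the NS sum; the next highest NS cell had 28.3 FPKM. The means were 605 ± 865 and 102 ± 341 FPKM (SD), a log2 ratio of 2.56. The ratio was 7.26 without NS_14, 0.68 among the cells below 10% on the sensory receptor measure and 0.82 among those with at least 50 FPKM of neuron markers. NS_14 was also the NS cell with the most summed astrocyte markers (941 FPKM, with reads of 4 of 5 genes). It had 1450 FPKM of microglial genes, from 2 of 6 genes. The part of those cells' RNA in its Nr4a1 level was not tested.

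Npas4 (GRCm38, chr19:4984355-4990316, minus strand) and Arc (GRCm38, chr15:74669083-74672570, minus strand) were read in few cells. Npas4 had reads in 8 of 35 LS and 2 of 12 NS cells and a highest level of 241 FPKM in LS_18, which held 60.6% of the LS sum, and 58.7 FPKM in NS_2. The log2 ratio of its means was 0.69, and it was -0.61 without LS_18 and 2.27 without NS_2. It turned to -1.16 over all 63 cells and to -0.23 among the cells with at least 3000 genes. Arc had reads in 11 of 35 LS cells (31.4%, 16.9% to 49.3%), of which LS_28, LS_29 and LS_17 were highest at 159, 130 and 121 FPKM. In NS cells all Arc reads, 175 of them (exact 95% interval 150.0 to 203), came from NS_15, at 245 FPKM. The mean level of Arc was thus alike, at 20.7 ± 42.9 and 20.4 ± 70.6 FPKM (SD, LS and NS), with a log2 ratio of 0.02. NS_15 had no read of any neuron marker, the highest sensory receptor measure of the NS cells (216%) and no read of the other 9 genes. It had 1136 FPKM of oligodendrocyte markers, all from 1 of the 5 genes of that list. Without it no filtered NS cell had a read of Arc.

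**Figure D2:**
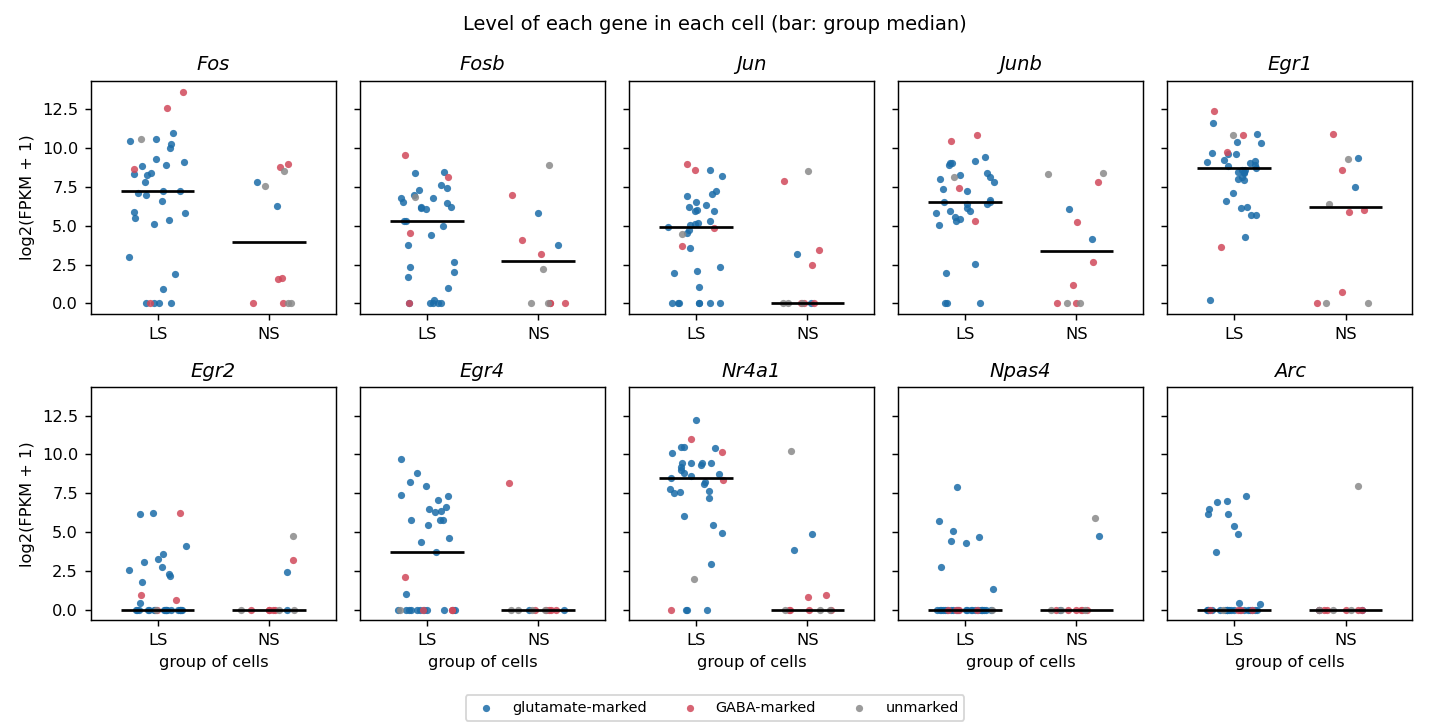
Level of each gene in each filtered cell as log2(FPKM + 1); points are the 35 LS and 12 NS cells, coloured by marker class, and the black bar is the median of the group. The median lies at 0 in both groups for Egr2, Npas4 and Arc, and in NS cells also for Jun, Egr4 and Nr4a1.

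By mean level over LS cells, per length of transcript, the order was Fos, Egr1, Nr4a1, Junb, Fosb, Egr4, Jun, Arc, Npas4 and Egr2. Each SD was larger than its mean, so that neighbours in this order did not differ beyond their spread. By the median cell the order was another: Egr1 came first at 421 FPKM, followed by Nr4a1 at 363 and Fos at 152 FPKM. Among cells with a read, the median level was 431 FPKM for Nr4a1, 421 for Egr1, 307 for Fos and 124 for Junb. Egr4 had 80.2, Fosb 72.0 and Arc 69.5 FPKM. A few cells with Arc thus held about as much of it as the cells with Fosb or Egr4 held of those, whereas Jun, Npas4 and Egr2 lay lower even where they were read, at 36.8, 22.8 and 5.84 FPKM.

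Summed over the 10 genes, the level was 55.6, 1720 and 23066 FPKM in the lowest, median and highest LS cell and 8.28, 473 and 2862 FPKM in NS cells. The means were 2829 ± 4280 and 827 ± 950 FPKM (SD), a log2 ratio of 1.77. The genes took 0.0187% to 7.87% of the reads of an LS cell and 0.00337% to 1.22% of those of an NS cell. The ratio was 1.43 without LS_39, 2.14 without NS_14, 0.71 among the cells below 10% on the sensory receptor measure and 0.44 among the cells with at least 50 FPKM of neuron markers. As a background, on the scale of log2(mean FPKM + 1), 30.7% of 8084 genes, those whose mean reached 10 FPKM in either group, were at least 2-fold higher in LS and 41.3% at least 2-fold lower, with a median log2 ratio of -0.36. Of the 10 genes 9 reached that level, and 5 of the 9 (Fos, Junb, Egr1, Egr4 and Nr4a1) were at least 2-fold higher in LS and none was at least 2-fold lower, with a median of 1.21. Fosb, Jun, Arc and Npas4 lay between, at 0.71, 0.55, 0.02 and 0.62. Egr2, which did not reach 10 FPKM in either group, stood at 1.11.

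**Figure D3:**
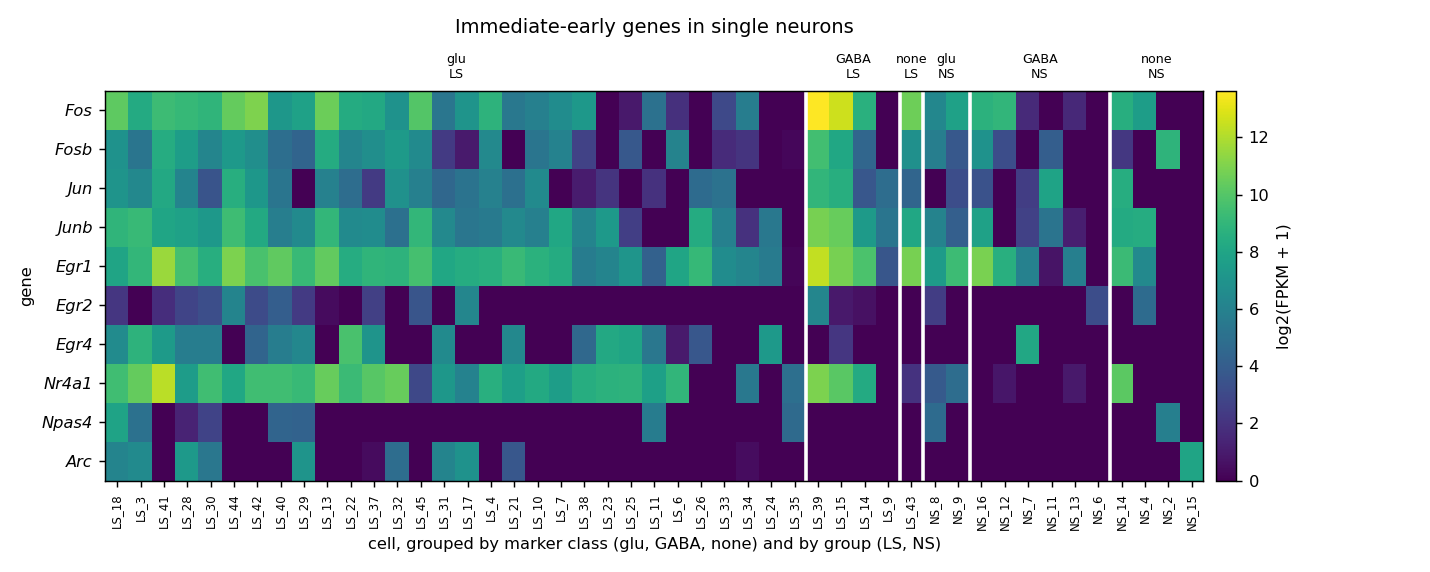
Level of the 10 genes (rows) in the 47 filtered cells (columns) as log2(FPKM + 1), with cells grouped by group and marker class (glu, glutamate-marked; GABA, GABA-marked; none, unmarked) and ordered within each by their mean over the 10 genes. Egr1 is filled in every LS cell, whereas Arc and Npas4 are filled in 11 and 8 glutamate-marked LS cells and in no GABA-marked cell.

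Within the filtered LS cells the 2 marker classes shared the AP-1 genes and Egr1 but not Arc and Npas4. In the 30 glutamate-marked LS cells reads were present for Egr1 in 30, Junb and Nr4a1 in 27 each, Fos in 26, Fosb in 25 and Jun in 23 cells. Egr4 was read in 19 of them, Egr2 in 12, Arc in 11 and Npas4 in 8. All filtered LS cells with Arc or Npas4 were glutamate-marked. This did not hold without the filters. LS_8, taken out by the oligodendrocyte score, was GABA-marked with 258 FPKM of Gad1 and Gad2 and had 18 reads of Arc (14.1 FPKM). In the 4 GABA-marked LS cells (LS_9, LS_14, LS_15 and LS_39) Egr1, Jun and Junb were read in 4, Fos, Fosb, Nr4a1 and Egr2 in 3, Egr4 in 1 and Arc and Npas4 in none.

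A lack of reads in 4 cells shows little by itself. No read in 4 of 4 cells allows a share of up to 60.2% by the exact 95% interval, and of the 4746 genes with a read in 20% to 50% of the glutamate-marked LS cells, 28.1% had no read in the 4 GABA-marked LS cells. Egr2, Arc and Npas4 fell in that band of detection, and 2 of these 3 were without a read. The 6 GABA-marked NS cells also had no read of Arc or Npas4. One of them, NS_7, had the only Egr4 reads of the filtered NS cells.

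The 4 GABA-marked LS cells spanned almost the whole range of the group. LS_39 had 12613 FPKM of Fos, 5365 of Egr1, 1992 of Nr4a1, 1795 of Junb, 731 of Fosb, 495 of Jun and 74.8 FPKM of Egr2, and 7.87% of its reads lay in the 10 genes. LS_15 followed with 6175 FPKM of Fos, 1809 of Egr1, 1385 of Junb, 1136 of Nr4a1, 377 of Jun and 276 FPKM of Fosb. LS_14 was nearer to the glutamate-marked cells, with 394 FPKM of Fos and 853 of Egr1. LS_9 had no read of Fos, Fosb or Nr4a1 and only 28.3 FPKM of Jun, 38.3 of Junb and 11.3 of Egr1, and it was also the LS cell with the highest sensory receptor measure (33.6%). The mean number of genes with a read was 6.93 in the glutamate-marked and 6.25 in the GABA-marked LS cells, a difference of 0.683 that turned to -0.4 without LS_9.

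LS_39 does not rest securely in its class. It was called GABA-marked from 9.25 FPKM of Gad1 alone, its neuron markers summed to 5.21 FPKM, and it had 2209 genes above 1 FPKM. Its microglial genes summed to 2931 FPKM, the highest of the LS cells. They stood at 1800 FPKM for C1qb, 722 for C1qa, 200 for Tmem119, 138 for Csf1r and 70.9 FPKM for P2ry12, with no read of Cx3cr1. Among the astrocyte genes it had 409 FPKM of Gfap and 79.3 FPKM of Slc1a3 but no read of S100b, Aqp4 or Aldh1l1. The part of RNA from other cells in its levels was not tested. LS_15, in contrast, had 95.1 FPKM of Gad1 and Gad2 and 137 FPKM of neuron markers. It was not free of glial genes. Among the microglial genes it had reads of Tmem119 only, at 207 FPKM. Among the astrocyte genes it had 32.8 FPKM of S100b, 19.7 of Aldh1l1 and 12.7 FPKM of Slc1a3 but no read of Gfap or Aqp4.

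Over the 35 LS cells the 10 genes did not vary as 1 set. Fos, Fosb, Jun, Junb and Egr1 varied together from cell to cell, Egr4, Arc and Npas4 varied apart from them, and Egr2 and Nr4a1 stood between. Pearson's r of log2(FPKM + 1) was 0.81 for Fos and Fosb, 0.74 for Fos and Egr1, 0.73 for Fosb and Egr1, 0.72 for Junb and Egr1 and 0.67 for Jun and Junb. All 10 pairs among these 5 genes had an r between 0.52 and 0.81 with a median of 0.65. The 15 pairs of these 5 with Egr4, Arc or Npas4 had an r between -0.26 and 0.17 with a median of -0.01, and the 3 pairs among Egr4, Arc and Npas4 had 0.29 (Egr4 and Arc), 0.32 (Egr4 and Npas4) and 0.41 (Arc and Npas4), which rest on the 5 to 8 cells with reads of both. These sets were drawn from the values themselves, so their r values are a description.

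**Figure D4:**
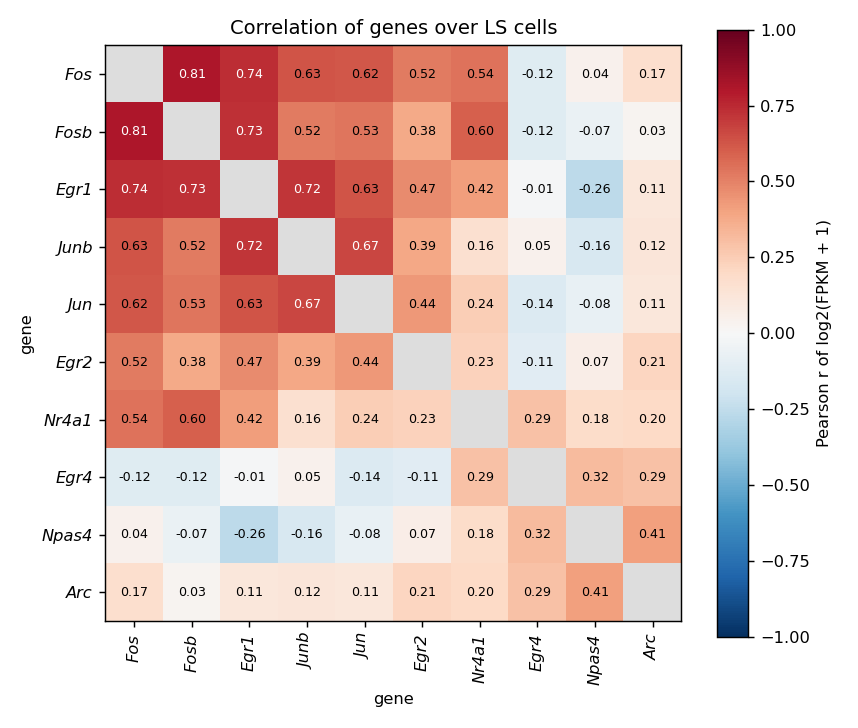
Pearson's r of log2(FPKM + 1) for each pair of the 10 genes over the 35 LS cells; red is positive, blue negative and grey the gene with itself. Fos, Fosb, Egr1, Junb and Jun form a block with r from 0.52 to 0.81, and Egr4, Npas4 and Arc lie outside it.

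Each pair shares its cells and their depth. As a background, 0.974% of the 18736381 pairs among the 6122 genes that were read in 50% or more of the LS cells had an r of at least 0.5, with a median r of 0.07, whereas 12 of the 21 pairs among the 7 immediate-early genes that passed the same mark did, with a median of 0.53. Over all 45 pairs, 13 had an r of at least 0.5 and the median was 0.24. Spearman's rho gave a median of 0.32. The level of none of the 10 genes followed depth closely, as r with log10 reads ran from 0.01 (Arc) to 0.32 (Jun). The median r of the 10 pairs was 0.63 in the 30 glutamate-marked LS cells, 0.62 without LS_39, 0.68 in the 31 LS cells below 10% on the sensory receptor measure, 0.61 in the 30 with at least 50 FPKM of neuron markers and 0.65 after a straight line on the number of genes detected was taken out. The lowest r of the 10 pairs was 0.44, 0.48, 0.61, 0.43 and 0.52 in the same order, and in the glutamate-marked cells 8 of the 10 pairs reached an r of 0.5.

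Nr4a1 went with Fosb (r 0.60) and Fos (0.54) but less with Egr1 (0.42), Jun (0.24) and Junb (0.16). LS_41 had the highest Nr4a1 (4683 FPKM) together with the second-highest Fosb and Egr1 of the LS cells, 348 and 3075 FPKM, yet 258 FPKM of Junb. LS_43 and LS_45 had 1555 and 1022 FPKM of Fos but only 2.95 and 6.77 FPKM of Nr4a1. LS_43 was the unmarked LS cell, with 1642 genes above 1 FPKM. Of the neuron markers it had reads of Syt1 and Map2 only, at 2.80 and 0.09 FPKM. It also had 140 FPKM of C1qa, 97.7 of Slc1a3 and 73.9 FPKM of Aqp4. LS_45 had the highest summed blood genes of the LS cells, at 50128 FPKM. The part of RNA from other cells in these levels was not tested. Egr2 was read in 15 LS cells, and all 15 also had reads of Fos, Fosb, Junb, Egr1 and Nr4a1, while 14 had Jun. With detection independent, 12.9, 12.4, 13.7, 15, 13.3 and 12 cells would have both genes, in that order. The r of Egr2 with Fos was 0.52.

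Egr4 parted from its relative Egr1 cell by cell. Egr4 was read in 20 LS cells and Fos in 30, 17 cells had both and 2 had neither, with r = -0.12. LS_23, LS_24 and LS_26 had 302, 160 and 12.2 FPKM of Egr4 and no read of Fos or Fosb. In the other direction, of the 8 LS cells with over 1000 FPKM of Fos, LS_39, LS_43, LS_13, LS_44 and LS_45 had no read of Egr4, and LS_15, LS_42 and LS_18 had 3.39, 19.9 and 94.9 FPKM. LS_22, with the highest Egr4 at 822 FPKM, had 330 FPKM of Fos. The r of Egr4 with Egr1 was -0.01 over the 35 LS cells and 0.07 over the 30 glutamate-marked ones.

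Arc and Npas4 were read mostly in cells that also had the others. All 11 LS cells with Arc had reads of Fos, Junb, Egr1 and Nr4a1, 10 had Fosb and 8 had Egr4. With detection independent, 9.43, 10.1, 11, 9.74, 9.11 and 6.29 cells would have both genes, in that order. Among the 30 cells with Fos, 19 had no read of Arc, and the r of Arc with Fos was 0.17. Of the 8 LS cells with Npas4, 7 had Fos (6.86 if detection were independent), 7 had Egr4 (4.57) and 5 had Arc (2.51). The cell without Fos and Egr4 was LS_35, a glutamate-marked cell with 25.3 FPKM of Npas4 and 29.99 FPKM of Nr4a1 but 0.148 FPKM of Egr1, 0.177 FPKM of Fosb and no read of Fos, Jun, Junb, Egr2, Egr4 or Arc, the lowest sum of the 10 genes in the LS group (55.6 FPKM).

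**Figure D5:**
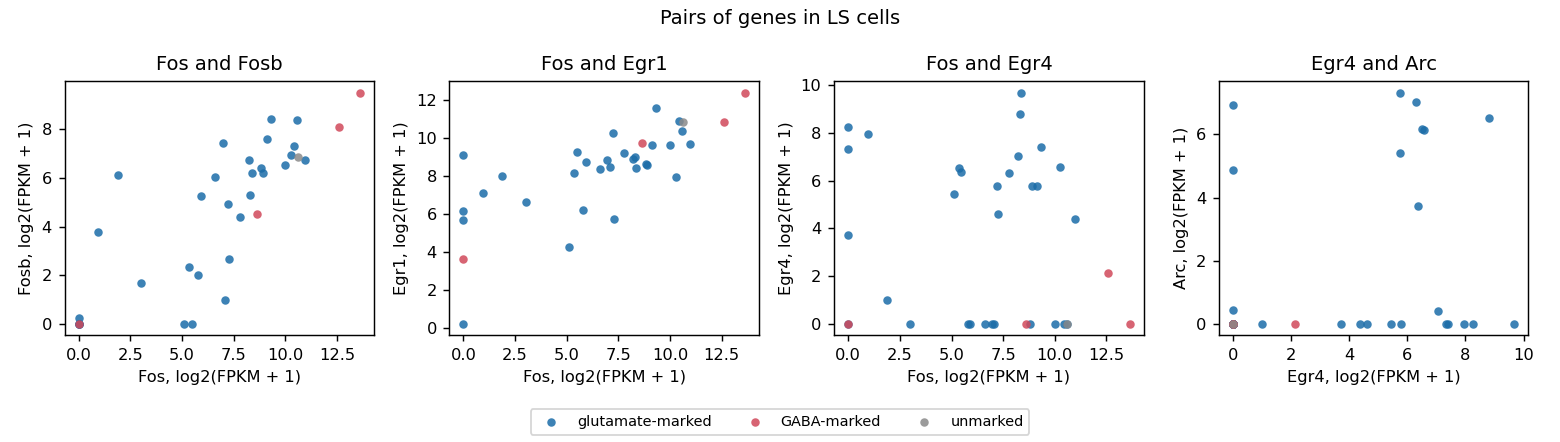
Levels of 4 pairs of genes in the 35 LS cells, both axes as log2(FPKM + 1), with points coloured by marker class. Fosb and Egr1 follow Fos (r 0.81 and 0.74), whereas Egr4 does not (-0.12); 12 cells with Egr4 have no read of Arc.

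Some of the same pairs were read together in NS cells. Fos and Egr1 were both read in 8 of 12 NS cells, Fos and Junb in 7, Fos and Fosb in 5 and Fos and Nr4a1 in 5, and all 8 NS cells with Fos had Egr1. The highest sums of the 10 genes were found in NS_14 (2862 FPKM) and NS_16 (2664 FPKM), both within the range of the LS cells. NS_16 was GABA-marked with 375 FPKM of Gad1 and Gad2 but also had 28.8 FPKM of Slc17a7. It had 1880 FPKM of Egr1, 430 FPKM of Fos and no read of Nr4a1. NS_6, NS_2 and NS_15, which had 1 or 2 of the genes, were also among the 4 shallowest NS libraries. In NS cells, r of the mean log2(FPKM + 1) of the 10 genes with log10 reads was 0.63 over 12 cells, against 0.30 over 35 LS cells.

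The other genes were ranked by how closely they followed the 10 over the LS cells. Among the 6115 others read in 50% or more of these cells, the 5 with the highest r with the mean of the 10 were Cdkn1a, a cell cycle inhibitor induced by p53 (r 0.72), Ier2, an immediate-early response gene (0.71), Csrp1, a LIM protein of the cytoskeleton (0.67), Jund, an AP-1 partner (0.67), and Gadd45b, a stress and activity gene linked to DNA demethylation (0.66). For Fos alone they were Ier2 (0.78), Id3, an inhibitor of basic helix-loop-helix factors (0.75), Sgk1, a kinase induced by glucocorticoids (0.73), Rap1b, a small GTPase (0.71), and Zfp36, an RNA-binding protein that shortens the life of transcripts (0.70). Over the glutamate-marked cells alone these 10 values were 0.61 to 0.78. Counting the immediate-early genes too, Fosb ranked 1, Egr1 ranked 4, Junb 14, Jun 17, Nr4a1 56 and Egr4 3814 among 6121 genes by r with Fos.

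Other rapid primary response genes were read along with the 10. Of 26 such genes, 21 had a read in at least 50% of the LS cells, and 8 of the 21 (Ier2, Jund, Gadd45b, Dusp1, Atf3, Klf6, Btg2 and Trib1) had an r of at least 0.5 with the mean of the 10, against 1.06% of the 6115 genes. The median r was 0.39 for the 21 genes and 0.03 for the 6115. Dusp1, a phosphatase that ends MAP kinase signalling, had an r of 0.65 and Egr3, a further member of the Egr family, 0.05. Plk2 and Homer1, which are activity-regulated genes of the synapse, had 0.00 and -0.09. Between the groups, 15 of the 23 rapid genes with a mean of at least 10 FPKM in a group were at least 2-fold higher in LS and 2 (Srf and Plk3) at least 2-fold lower, with a median log2 ratio of 1.55, beside the background of 30.7% and 41.3%.

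Genes of the later wave of the response were higher in LS cells, but none of them followed the 10 closely from cell to cell. Of 10 such genes, 8 passed the detection mark and none reached an r of 0.5, with a median of 0.04 and a range from -0.13 (Sorcs3) to 0.28 (Bdnf, the neurotrophin). Only 1.06% of the 6115 genes outside the 10 reached that r, so its lack is not particular to later genes. In their level 8 of the 9 whose mean reached 10 FPKM in a group were at least 2-fold higher in LS, with a median log2 ratio of 2.60. Over all genes at that level 30.7% were at least 2-fold higher and 41.3% at least 2-fold lower in LS. Nptx2, a secreted organiser of excitatory synapses, had means of 101 ± 260 and 7.06 ± 17.1 FPKM (SD, LS and NS), and Vgf, a secreted neuropeptide precursor, had 31.3 ± 47.5 and 4.33 ± 9.28 FPKM. Genes for the factors upstream of the 10 had a median r of 0.09 over the 8 that passed the detection mark, from -0.37 (Mef2c) to 0.32 (Crtc2). Of 7 with a mean of at least 10 FPKM in a group 2 (Mef2c and Crebbp) were at least 2-fold higher and 2 (Srf and Crtc2) at least 2-fold lower in LS, beside the same background. Srf stood in both the rapid and the upstream list.

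Beside these, the mean of the 10 genes over LS cells had an r of -0.34 with the summed neuron markers, 0.33 with the microglial, 0.26 with the astrocyte, 0.16 with the blood, 0.14 with the endothelial and -0.12 with the oligodendrocyte markers. With the number of genes above 1 FPKM it was 0.21 over the 35 LS cells and 0.49 over the 30 glutamate-marked ones, and with the mitochondrial share it was -0.02. The part of these measures in the levels of the 10 genes was not tested.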

How the data were processed

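Smart-seq2 libraries of 63 single cells were measured. The authors trimmed reads with AfterQC, aligned them to GRCm38 with STAR 2.5.3a, counted them with featureCounts and divided by gene length and library total. The deposited table holds these FPKM values, although its name speaks of counts. It has 1 column per cell, all were matched to a sample by title, and 0 columns stayed unused. The authors had kept protein-coding genes that reached 1 FPKM somewhere.

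Cells were filtered on FPKM by the steps the study describes, which took out 2 cells with little cDNA, 1 cell with under 1000 genes above 1 FPKM, no cell by mitochondrial share (25%), 10 by the astrocyte, 1 by the oligodendrocyte and 2 by the joint score and left 47. The study states more cells taken out by mitochondrial share, fewer by the scores and more LS cells kept, so its exact set of cells was not rebuilt and the cause was not found. Whole reads were recovered as FPKM times gene length over a constant per cell, with lengths of GENCODE M21 for 12186 genes and lengths solved from the values for 6353 (Fosb, Junb, Nr4a1 and Npas4 among them), while 1640 stayed unsolved. In the solved genes 99.99% of the values under 20000 reads came out whole within 0.01. The totals average 1000000, so that reads are relative to the mean library. Tested on simulated data for 20179 genes and 63 cells, the recovery returned 99.97% of the resolved values as equal. No 2 cells held identical values, and the highest r between cells was 0.66, so none was counted as a repeat.

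A read means an FPKM above 0. Shares have exact (Clopper-Pearson) 95% intervals and read sums exact Poisson ones. Reads have no molecular identifiers, so these cover counting error only. Correlations used log2(FPKM + 1). No test between groups was made, since cells of unnamed mice are not replicates. The 10 genes, the gene lists and the class rule were chosen with earlier results of these data known. Named genes were the 10, the 5 most correlated with their mean and with Fos, and the genes of fixed lists of rapid, later and upstream genes; cells were named where they held the highest value or decided a value, and LS_35, LS_43 and the cells set out for Egr4 were chosen after their values were seen. Doublets were treated only by the joint score of the study. Alternatives were other cells, thinning, other detection limits, scales and units, and each cell left out in turn. Python 3.11.15, numpy 2.4.6, pandas 2.3.3, scipy 1.17.1 and matplotlib 3.10.9 were used.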

Additional observations from a re-analysis of the deposited data

Results flagged for a closer look

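In small groups of cells, a value whose gap to its nearest neighbour took most of the range of the group (Dixon's criterion) was listed. The 3 groups of 4 to 10 cells (GABA-marked LS, GABA-marked NS and unmarked NS) were looked at, for each of the 10 genes, the number of genes with a read and their sum, and 18 of 62 ends of such a group were listed. Chance alone lists about 1 in 20 groups where values are spread evenly, and a gene read in a single cell of a group is always listed.

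Among the 4 GABA-marked LS cells, Egr2 in LS_39 (74.8 FPKM) and Egr4 in LS_15 (3.39 FPKM) stood apart. Among the 6 GABA-marked NS cells, NS_16 stood apart in Egr1 (1880 FPKM), Junb (220 FPKM), Fosb (124 FPKM) and the sum of the 10 genes (2664 FPKM), NS_7 in Egr4 (287 FPKM), NS_11 in Jun (237 FPKM) and NS_6 in Egr2 (8.28 FPKM) and in the number of genes with a read, which was 1. Among the 4 unmarked NS cells, NS_14 stood apart in Nr4a1 (1186 FPKM), Egr1 (622 FPKM), Jun (359 FPKM) and the sum (2862 FPKM), NS_2 in Fosb (467 FPKM) and Npas4 (58.7 FPKM), NS_15 in Arc (245 FPKM) and NS_4 in Egr2 (26.1 FPKM).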

How the results depend on the processing

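The difference in the number of genes with a read kept its sign in 12 alternatives (0.433 to 3.07). It moved by more than the spread between LS cells in 1, the glutamate-marked cells alone, where it was 0.433. Both NS cells of that alternative also had reads of Gad1 or Gad2. Leaving out each cell in turn gave 2.46 to 3.01. The log2 ratio of the summed level stayed above 0 in 13 alternatives (0.44 to 3.66, the highest in GABA-marked cells), and was 1.43 to 2.14 with each cell left out. The median pairwise r was 0.17 to 0.53 over 13 alternatives, moved beyond its spread only with genes read in at least 50% of LS cells (0.53), and was 0.21 to 0.28 with each LS cell left out. The difference between glutamate-marked and GABA-marked LS cells ran from -0.41 (cells below 10% on the sensory receptor measure) to 0.93, and from -0.4 (without LS_9) to 1.27 (without LS_15) with each cell left out. By gene, the log2 ratio of means reversed for Egr1 among cells below 10% on the sensory receptor measure (-0.055) and among cells with at least 50 FPKM of neuron markers (-0.37), and for Egr4 among GABA-marked cells (-5.82, 1 of 4 LS against 1 of 6 NS cells with reads). Ratios that were under 2-fold to begin with turned as well: Fosb to -0.57 and Npas4 to -0.23 among cells with at least 3000 genes, Jun to -0.57 below 10% on the sensory receptor measure and -0.36 by neuron markers, Npas4 to -1.16 over all 63 cells and -0.61 without LS_18, and Arc to -0.0014 with markers counted from 1 FPKM, -0.02 in CPM and down to -0.30 in 18 of 46 runs with a cell left out. The cause was not tested. The shares of LS cells with a read stayed inside their exact intervals in all 9 alternatives for each gene. The alternatives by neuron markers, without LS_39, NS_12 and NS_15 and by depth without thinning (1.83) were chosen after seeing the data. No paired analysis was possible because the numbers in the labels only count the cells and no test was made. Depth limits what a missing read shows in NS cells, as 4 of 12 NS libraries held under 200000 reads.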
